A study of Mus musculus with 6 samples.

Results

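The 10 genes described here help to build the cytoskeleton of neurons, and they were measured in the trigeminal ganglion of mice given NTG or vehicle. They make up a family chosen by name, with earlier results of these data known: the neurofilament genes Nefl, Nefm and Nefh, the other neuronal intermediate filament genes Ina and Prph, the microtubule-associated protein genes Map1a, Map1b, Map2 and Mapt, and the neuronal beta tubulin gene Tubb3. All 10 were among the 17524 genes of the deposited table and all 10 passed the filter on low values. Messenger RNA was profiled in 6 libraries of whole ganglia from wild-type mice, 3 of vehicle mice and 3 of NTG mice, both groups having the same genotype and tissue. NTG is the only name the labels give the agent. In mouse models of migraine this is the usual short form of nitroglycerin, a nitric oxide donor. The sources used here give no strain, age, sex, dose or time after dosing, nor do they say whether a library came from 1 animal or from pooled ganglia. Because nothing says that replicates are separate animals, the p-values measure only the spread between these libraries, which may be technical.

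Neurofilaments are the main intermediate filaments of large axons. Light, medium and heavy subunits assemble side by side with alpha-internexin (Ina) or peripherin (Prph), and the amount of neurofilament sets the calibre of myelinated axons. In sensory ganglia, heavy neurofilament is the classical marker of large myelinated neurons and peripherin that of small unmyelinated ones. Microtubules are polymers of alpha and beta tubulin that carry transport along the axon; tau (Mapt) binds them mainly in axons, MAP2 mainly in dendrites and cell bodies, MAP1B is abundant in growing axons and MAP1A in mature neurons.

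The 6 libraries held between 18813027 and 23774244 reads, recovered as whole numbers from the deposited normalised values. Over the 6 libraries the reads of a gene ranged from 3103 for Ina to 815715 for Map1b, so Ina is the least precisely counted of the 10. Levels below are normalised reads, the deposited counts divided by a size factor. A gene was said to rise or fall where the adjusted p of limma over all 17475 genes tested was under 0.05. By that rule 12.3% of all genes rose and 13.5% fell, 25.8% in all. Across the table the change followed transcript GC content. With protein-coding genes ranked by it and cut into 10 equal bins, the median log2 fold change was 0.32 in the lowest bin and -0.31 in the highest. Each result is therefore also given after a smooth curve over GC content and transcript length had been taken out of every library, called the GC and length adjustment. After it 4.08% of genes rose and 5.08% fell. What part GC content played in any change was not tested.

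The longest run without a mismatch shared by any pair among the 10 transcripts was 35 bases, between Nefm and Prph. Tubb3 shared at most 47 bases with another beta tubulin, Tubb6. Both runs are shorter than the 150-base reads, though how the authors counted reads that map to several genes is not given in the sources used here.

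What sets the heavy subunit apart is its tail, which carries a long series of repeats of lysine, serine and proline that are phosphorylated in axons. The stretch below, 5′ to 3′, is the 180 bases of the Nefh coding sequence in GENCODE M21 (GRCm38; bases 1555 to 1734, counted from the first base of the start codon) that are densest in the codons AAGTCNCCN, with each of the 10 copies in capitals.
Nefh: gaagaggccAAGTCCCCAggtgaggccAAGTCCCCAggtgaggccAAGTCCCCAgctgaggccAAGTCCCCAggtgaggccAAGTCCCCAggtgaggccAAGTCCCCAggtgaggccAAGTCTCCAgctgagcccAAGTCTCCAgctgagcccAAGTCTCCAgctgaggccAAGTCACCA

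In frame, the Nefh coding sequence held 34 copies of AAGTCNCCN, against 2 in Nefm and 0 in Nefl, Ina and Prph. Searched on the transcript strand in any frame, 19.6% of 16324 transcripts held at least 1 copy, and no transcript other than Nefh held 34 or more. The window shown had a GC content of 63.9%.

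On the values as deposited, the subunits of the neurofilament triplet moved in opposite directions. The light chain gene Nefl was slightly higher in NTG, while the medium and heavy chain genes Nefm and Nefh were lower. After the GC and length adjustment only Nefm of the triplet was called. Nefl (chr14:68083863-68089095, plus strand) stood at 128525, 125422 and 116417 normalised reads in vehicle replicates 1 to 3, and at 133284, 131603 and 133623 in NTG replicates 1 to 3. All 3 NTG values lay above all 3 vehicle values. The means were 123455 ± 6289 and 132837 ± 1082 (SD, n = 3 each), a log2 fold change of 0.11 ± 0.04 (SE, limma adjusted p = 0.0443) or 7.69% more. This rise was close to the threshold. It did not pass in edgeR on the recovered reads (adjusted p = 0.0562), in DESeq2 (adjusted p = 0.0722) or on the scale adjusted for GC and length (log2 fold change 0.05, limma adjusted p = 0.320). With libraries left out in turn it passed only without vehicle replicate 1, and the adjusted p otherwise lay between 0.0639 (without NTG replicate 1) and 0.324 (without vehicle replicate 3). The log2 fold change was 0.065 without vehicle replicate 3 and 0.10 to 0.14 without each other library, and 0.12 in edgeR and 0.11 in DESeq2.

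Nefm, which lies near Nefl on the other strand (chr14:68119545-68125004, minus), encodes the medium chain whose tail links neighbouring filaments. It stood at 92735, 94303 and 89177 normalised reads in vehicle and at 81452, 78095 and 82908 in NTG. Every NTG library was below every vehicle library. The mean went from 92072 ± 2627 to 80818 ± 2468, a log2 fold change of -0.19 ± 0.04 (SE, limma adjusted p = 0.00104). The fall passed without each library in turn. After the GC and length adjustment the log2 fold change was -0.09 and still passed (limma adjusted p = 0.0382), but with a library also left out it passed only without vehicle replicate 3 (0.0374) or NTG replicate 1 (0.0189), and was otherwise between 0.0564 and 0.283. The long non-coding gene A230070E04Rik, named here after its values were seen, overlaps the start of Nefm on the opposite strand, at 1 read for every 2.73 of Nefm. It stood at 32854 ± 1557 normalised reads in vehicle and 30577 ± 2278 in NTG (limma adjusted p = 0.143). In GENCODE M21 the Nefm gene is drawn longer (chr14:68082590-68124846) and spans Nefl on the opposite strand. By the deposited coordinates given above, Nefm does not reach Nefl. Whether reads were counted by strand is not given in the sources used here, nor is the annotation named. Reads of Nefm and A230070E04Rik thus cannot be told apart where these genes overlap.

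Nefh (chr11:4938754-4948064, minus strand), the heavy chain gene, showed a fall of similar size but with more scatter. Its values were 80548, 84006 and 79324 normalised reads in vehicle and 76563, 63388 and 70118 in NTG. The groups did not overlap, and NTG replicate 2 was the lowest of all. The mean fell from 81293 ± 2428 to 70023 ± 6588, a log2 fold change of -0.22 ± 0.05 (SE, limma adjusted p = 0.00778), which passed without each library in turn. After the GC and length adjustment the log2 fold change was 0.03 (95% interval -0.25 to 0.32, limma adjusted p = 0.901). Its transcript was 58.4% GC, and protein-coding genes in the same GC bin had a median log2 fold change of -0.20, near that of Nefh. Ap1b1, which overlaps the 5′ end of Nefh on the opposite strand at 1 read for every 6.56, also fell (log2 fold change -0.52, limma adjusted p = 0.00848; adjusted for GC and length, -0.39 and 0.155), and was named after its values were seen.

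Of the partners of the triplet, alpha-internexin was scarce and peripherin abundant in this ganglion. Ina (chr19:47014681-47025327, plus strand), expressed mainly by neurons of the brain and spinal cord, stood at 652, 493 and 638 normalised reads in vehicle and at 453, 478 and 492 in NTG. Vehicle replicate 2 was nearly level with NTG replicate 3, so the groups were separated by a narrow margin. The mean went from 594 ± 87.9 to 474 ± 19.8, a log2 fold change of -0.32 ± 0.10 (SE, limma adjusted p = 0.0286). The call was lost without vehicle replicate 1 (0.112), vehicle replicate 3 (0.0973), NTG replicate 1 (0.106) or NTG replicate 2 (0.0749), and after the GC and length adjustment (log2 fold change -0.15, 0.416). Nt5c2 overlaps the start of Ina on the opposite strand with 1 read for every 0.549 of Ina, so this gene is uncertain if strand was not counted.

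Prph (chr15:99053579-99058978, plus strand) encodes peripherin, the filament of small sensory neurons. It stood at 31014, 31703 and 31816 normalised reads in vehicle and at 26936, 29307 and 31145 in NTG. NTG replicate 3 fell within the vehicle values while NTG replicate 1 was clearly below them, and the gene did not pass (log2 fold change -0.12 ± 0.05 SE, 95% interval -0.22 to -0.02, limma adjusted p = 0.0822). Without NTG replicate 3 it fell (log2 fold change -0.17, limma adjusted p = 0.0127), whereas without NTG replicate 1 the log2 fold change was -0.061 (0.369). Its transcript, at 60.8% GC, was the richest in GC of the 10, and genes of that GC bin had a median log2 fold change of -0.31. After the GC and length adjustment Prph rose, by a log2 fold change of 0.21 ± 0.03 (SE, limma adjusted p = 0.000127), with no overlap between groups, and did so without each library in turn (0.19 to 0.23). The direction for this gene thus turned with the adjustment.

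The promoter of Prph is shown because Klf4 is named in the title of the series and Kruppel-like factors bind short sequences built on CACCC. The 300 bases run from 250 before to 50 after the annotated start (RefSeq, GRCm38.p6, chr15:99054924-99055223, plus strand). This start lies inside the locus given above, whose first base is further upstream. The window is printed with CACCC and its complement GGGTG in capitals.
Prph: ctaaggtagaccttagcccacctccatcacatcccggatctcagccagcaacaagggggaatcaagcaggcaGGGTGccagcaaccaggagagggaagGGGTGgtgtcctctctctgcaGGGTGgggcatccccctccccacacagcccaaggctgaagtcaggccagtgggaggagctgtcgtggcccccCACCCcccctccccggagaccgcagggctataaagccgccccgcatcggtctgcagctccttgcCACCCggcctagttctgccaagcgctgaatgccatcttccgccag

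Searched on both strands, this window held 5 copies, 2 as CACCC and 3 as GGGTG. Of 32851 RefSeq promoter windows of the same length, 57.5% held at least 1 copy and 1.02% held 5 or more. RefSeq windows were matched for 6 of the 10 genes. That of Prph held the most copies, so the 1.02% belongs to the highest of 6 windows. Ina held 2 copies, Map1a, Map1b and Tubb3 held 1 each, and the window of Map2 held none. These are matches of letters, and binding was not measured.

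**Figure D1:**
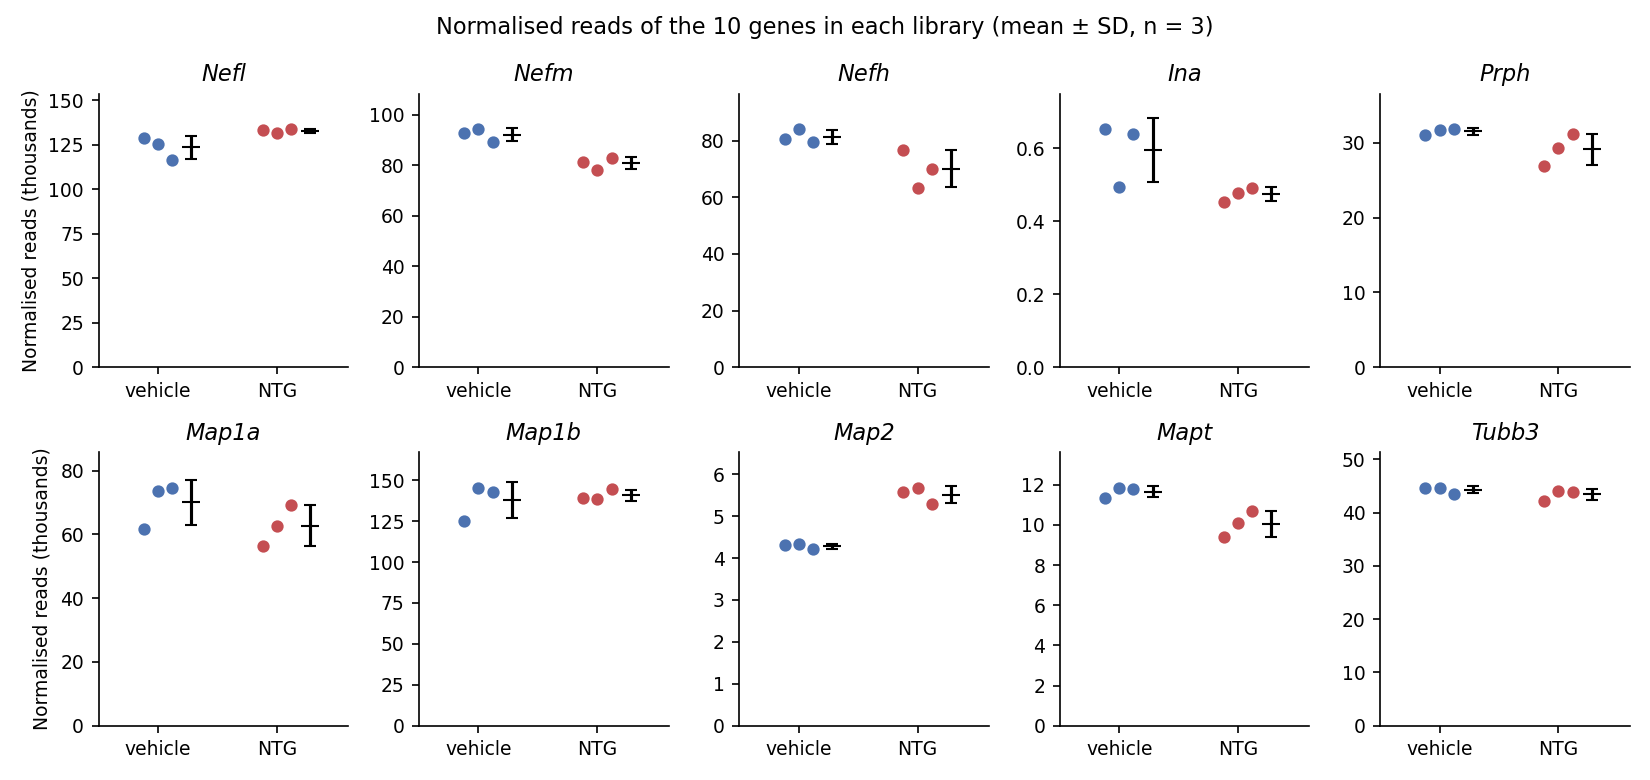
Normalised reads (linear axes from 0, in the scaled unit each axis names) of each of the 10 genes in the 3 vehicle and 3 NTG libraries; each point is a library and the black mark is the mean ± SD (n = 3). The groups do not overlap for Nefl and Map2, which are higher in NTG, or for Nefm, Nefh, Ina and Mapt, which are lower.

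Among the genes of microtubule-associated proteins, Map2 and Mapt moved in opposite directions. Map2 (chr1:66175202-66442583, plus strand) had the largest change of the 10 genes. It stood at 4300, 4333 and 4211 normalised reads in vehicle and at 5577, 5678 and 5283 in NTG. The lowest NTG library was far above the highest vehicle library. The mean rose from 4282 ± 62.9 to 5513 ± 206, a log2 fold change of 0.36 ± 0.05 (SE, limma adjusted p = 5.07e-05) or 28.7% more. The rise passed without each library in turn (log2 fold changes 0.34 to 0.39) and after the GC and length adjustment (0.27 ± 0.04 SE, limma adjusted p = 0.000227), also with each library left out (0.25 to 0.28). It did not pass a test against a minimum fold of 1.2 (limma adjusted p = 0.451), nor did any other of the 10 genes. The median of its GC bin was 0.12.

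The window at the start of Map2 is given for comparison with that of Prph (RefSeq, GRCm38.p6, chr1:66175079-66175378, plus strand). It holds no CACCC on either strand and is 77.7% GC, against 64.7% in the window of Prph.
Map2: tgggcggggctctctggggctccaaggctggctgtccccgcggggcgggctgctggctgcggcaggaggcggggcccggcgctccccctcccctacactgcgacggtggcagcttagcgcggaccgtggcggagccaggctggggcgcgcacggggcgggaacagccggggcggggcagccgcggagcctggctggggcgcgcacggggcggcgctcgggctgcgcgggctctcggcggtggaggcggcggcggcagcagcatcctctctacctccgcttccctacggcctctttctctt

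Mapt (chr11:104229409-104332090, plus strand) encodes tau. Its values were 11326, 11854 and 11801 normalised reads in vehicle and 9405, 10072 and 10711 in NTG. All NTG libraries were below all vehicle libraries. The mean went from 11660 ± 291 to 10063 ± 653, a log2 fold change of -0.21 ± 0.05 (SE, limma adjusted p = 0.00414), and the fall passed without each library in turn. It also passed after the GC and length adjustment (log2 fold change -0.16 ± 0.04 SE, limma adjusted p = 0.0131), but not when vehicle replicate 2 (0.0663), NTG replicate 1 (0.0723) or NTG replicate 2 (0.0729) was left out as well.

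The large MAP1 proteins, which are cut into heavy and light chains that bind microtubules together, did not pass. Map1a (chr2:121289590-121310832, plus strand) ranged from 61709 to 74609 normalised reads in vehicle and from 56267 to 69147 in NTG. The libraries within each group differed by more than the groups did (log2 fold change -0.16 ± 0.11 SE, 95% interval -0.43 to 0.11, limma adjusted p = 0.350), and vehicle replicate 1 was the lowest of its group. Without that library Map1a fell (log2 fold change -0.25, limma adjusted p = 0.0227), whereas without NTG replicate 1 the log2 fold change was -0.084 (0.671). Trp53bp1 and Ppip5k1, named after their values were seen, overlap the ends of Map1a on the opposite strand, at 1 read for every 21.7 and 29.1 of Map1a. Trp53bp1 rose (log2 fold change 0.21, limma adjusted p = 0.00924), and Ppip5k1 did not pass (0.04, 0.664). Neither passed after the GC and length adjustment (Trp53bp1 0.10, limma adjusted p = 0.243, and Ppip5k1 0.05, 0.641). Map1b (chr13:99421464-99516602, minus strand) had the most reads of the 10 genes, at 125124, 145481 and 143013 in vehicle and 139421, 138310 and 144751 in NTG. Its groups overlapped (log2 fold change 0.03 ± 0.05 SE, 95% interval -0.07 to 0.13, limma adjusted p = 0.655). Once adjusted for GC and length, its log2 fold change was -0.10 (limma adjusted p = 0.153), and with a library also left out it fell without vehicle replicate 1 (0.00975) or NTG replicate 3 (0.0249). Its direction thus turned with the adjustment.

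Tubb3 (chr8:123411553-123422015, plus strand), the beta tubulin used to stain neurons, had the smallest fold change of the set on the values as deposited. It stood at 44663, 44568 and 43495 normalised reads in vehicle and at 42186, 44071 and 43919 in NTG. The ranges overlapped, and the 95% interval of the log2 fold change reached only from -0.11 to 0.05 (estimate -0.03 ± 0.04 SE, limma adjusted p = 0.647). Its transcript was 57.9% GC. After the GC and length adjustment Tubb3 rose (log2 fold change 0.21 ± 0.03 SE, limma adjusted p = 7.64e-05), with no overlap, and did so without each library in turn (0.19 to 0.22).

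In all, 2 of the 10 genes rose (Nefl and Map2) and 4 fell (Nefm, Nefh, Ina and Mapt), beside 12.3% and 13.5% of all genes. In edgeR 1 rose and 4 fell, beside 14% and 14.1% of genes (28% in all), and in DESeq2 1 rose and 4 fell, beside 13.7% and 15.1% (28.8% in all). The same 6 genes were those whose groups did not overlap, 2 with NTG above and 4 with NTG below, beside 19.7% and 20% of all genes tested (39.7% in all). The median log2 fold change of the 10 was -0.14, against 0.00 over all genes. After the GC and length adjustment 3 rose (Map2, Prph and Tubb3) and 2 fell (Nefm and Mapt), beside 9.16% of all genes called in either direction, and the median was -0.01, against 0.02 over all genes. On that scale 3 did not overlap with NTG above and 2 with NTG below, beside 14.5% and 12.9% of genes (27.4% in all). Map2, Nefm and Mapt were called in the same direction on both scales. Under total count scaling and TMM scaling the same numbers rose and fell as on the deposited values.

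**Figure D2:**
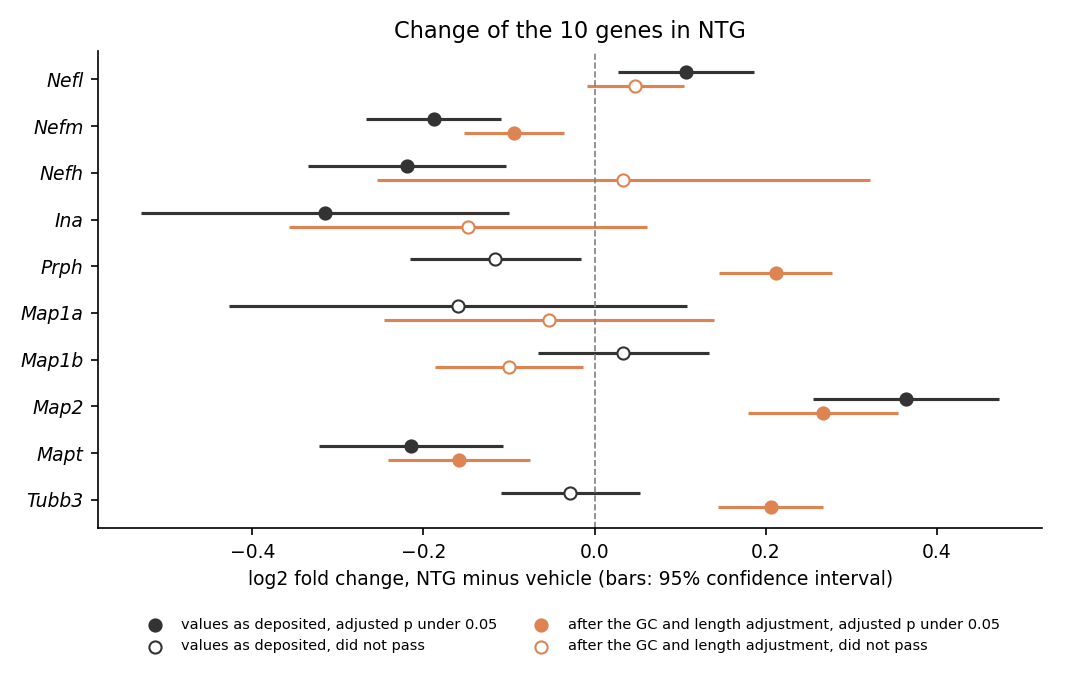
Log2 fold change (NTG minus vehicle) with its 95% confidence interval from limma for the 10 genes, on the values as deposited (black) and after the GC and length adjustment (orange); filled points passed an adjusted p of 0.05. Map2, Nefm and Mapt are filled on the same side of 0 in both, while Prph and Tubb3 are filled only after the adjustment, at 0.21 each.

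**Figure D3:**
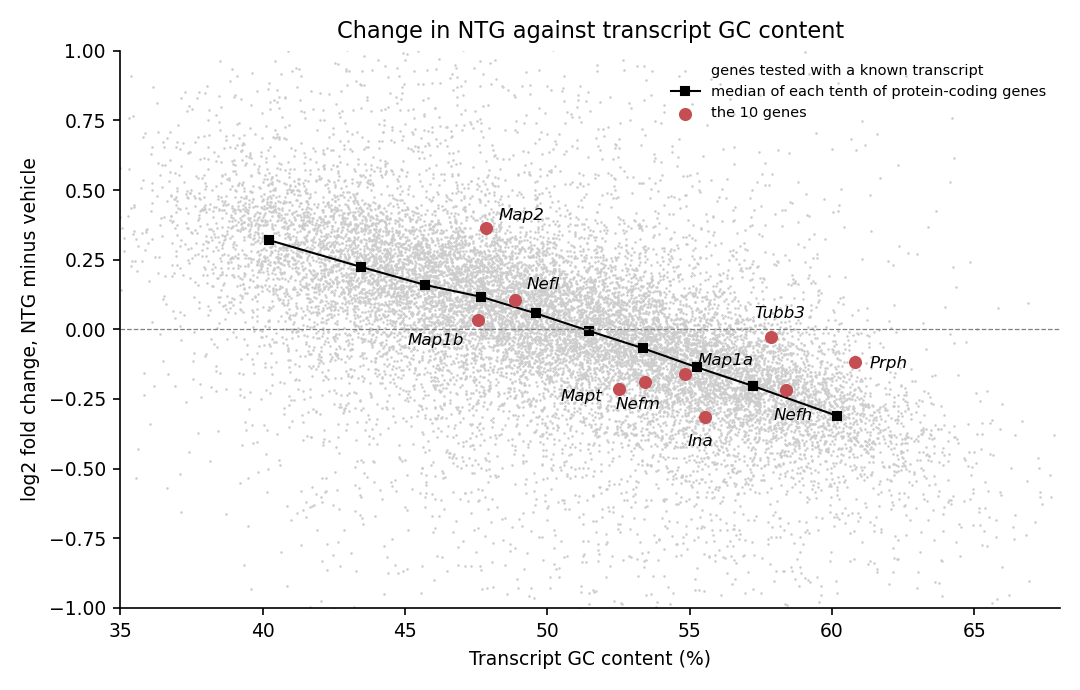
Log2 fold change (NTG minus vehicle) against transcript GC content (%) for genes tested that have a matched transcript (grey, genes beyond 35 to 68% or beyond ± 1 not drawn), the median of each of 10 GC bins of protein-coding genes (black squares) and the 10 genes (red). The medians run from 0.32 to -0.31, Nefh at -0.22 and Nefl at 0.11 lie near the line, Map2 lies above it at 0.36 and Mapt and Ina below it at -0.21 and -0.32.

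The transcripts differ in where their GC lies. Nefl was 48.8% GC as a whole, but 58.9% in its coding sequence of 1632 bases and 37.6% in its 3′ untranslated region of 1648 bases. Nefh was 58.4% GC with only 591 untranslated bases at its 3′ end. Map2 and Map1b had the lowest GC content, 47.8% and 47.6%, and Prph, Nefh and Tubb3 the highest. The adjustment used a single transcript per gene, the longest in the consensus coding set, although Map2 has 24 annotated transcripts and Mapt 12, so isoforms were not distinguished.

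Ratios between pairs of genes within a library cancel differences in scaling and in the share of neurons that are common to both genes. The 10 pairs were compared with an exact two-sided permutation test, whose smallest possible p with 3 against 3 libraries is 0.1, so no pair could pass 0.05. Light to medium neurofilament (Nefl to Nefm) was 1.39, 1.33 and 1.31 in vehicle and 1.64, 1.69 and 1.61 in NTG. The groups were well apart (log2 difference 0.30 ± 0.03 SE, exact permutation p = 0.1, adjusted over 10 pairs 0.125). The difference was 0.14 ± 0.03 after the GC and length adjustment, again with no overlap. Heavy to light neurofilament (Nefh to Nefl) was 0.627, 0.670 and 0.681 in vehicle and 0.574, 0.482 and 0.525 in NTG, a log2 difference of -0.33 ± 0.08 (exact permutation p = 0.1). That difference was -0.01 ± 0.11 after the adjustment, where the groups overlapped. Heavy to medium neurofilament overlapped on the values as deposited (log2 difference -0.03 ± 0.06, exact permutation p = 0.7). Adjusted for GC and length, this ratio was 0.851, 0.826 and 0.829 in vehicle and 1.02, 0.855 and 0.869 in NTG. Every NTG library was above every vehicle library (0.13 ± 0.08, exact permutation p = 0.1), but by a narrow margin. NTG replicate 1 lay far above the other libraries. Without NTG replicate 1 the deposited values did not overlap in the other direction (-0.092).

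Of the 10 pairs Map2 to Mapt moved most: 0.380, 0.366 and 0.357 in vehicle and 0.593, 0.564 and 0.493 in NTG. Whole-ganglion RNA does not show in which part of a cell a message lay. The log2 difference was 0.58 ± 0.08 (SE, exact permutation p = 0.1). Adjusted for GC and length it was 0.43 ± 0.06, with no overlap on either scale. Map2 to Tubb3 went from 0.0963, 0.0972 and 0.0968 in vehicle to 0.132, 0.129 and 0.120 in NTG (log2 difference 0.39 ± 0.04 SE, exact permutation p = 0.1), but by only 0.06 ± 0.01 after the adjustment. Map1a to Map1b was 0.493, 0.506 and 0.522 in vehicle against 0.404, 0.452 and 0.478 in NTG (log2 difference -0.19 ± 0.08 SE, exact permutation p = 0.1), and 0.05 ± 0.04 after the adjustment. Peripherin to light neurofilament had a log2 difference of -0.22 ± 0.08, and of 0.16 ± 0.04 after the adjustment. Of the 10 pairs, which share genes, 8 did not overlap on the values as deposited and 6 after the adjustment. As deposited, Nefl and Map2 alone did not overlap with NTG above, and Nefm, Nefh, Ina and Mapt with NTG below. The separation of Nefl to Nefm, Nefh to Nefl, Ina to Nefl and Map2 to Mapt therefore followed from the single genes. It is no further support for them. For Map2 to Mapt the same held after the adjustment. Nefl to Nefm, Map2 to Mapt, Map1b to Mapt and Map2 to Tubb3 stayed apart on both scales, with NTG above. Prph to Nefl turned, with NTG below as deposited and above after the adjustment, and Nefh to Nefm was apart only after it, by a narrow margin. Among single genes 39.7% and 27.4% did not overlap, and the share over all pairs of genes was not computed.

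**Figure D4:**
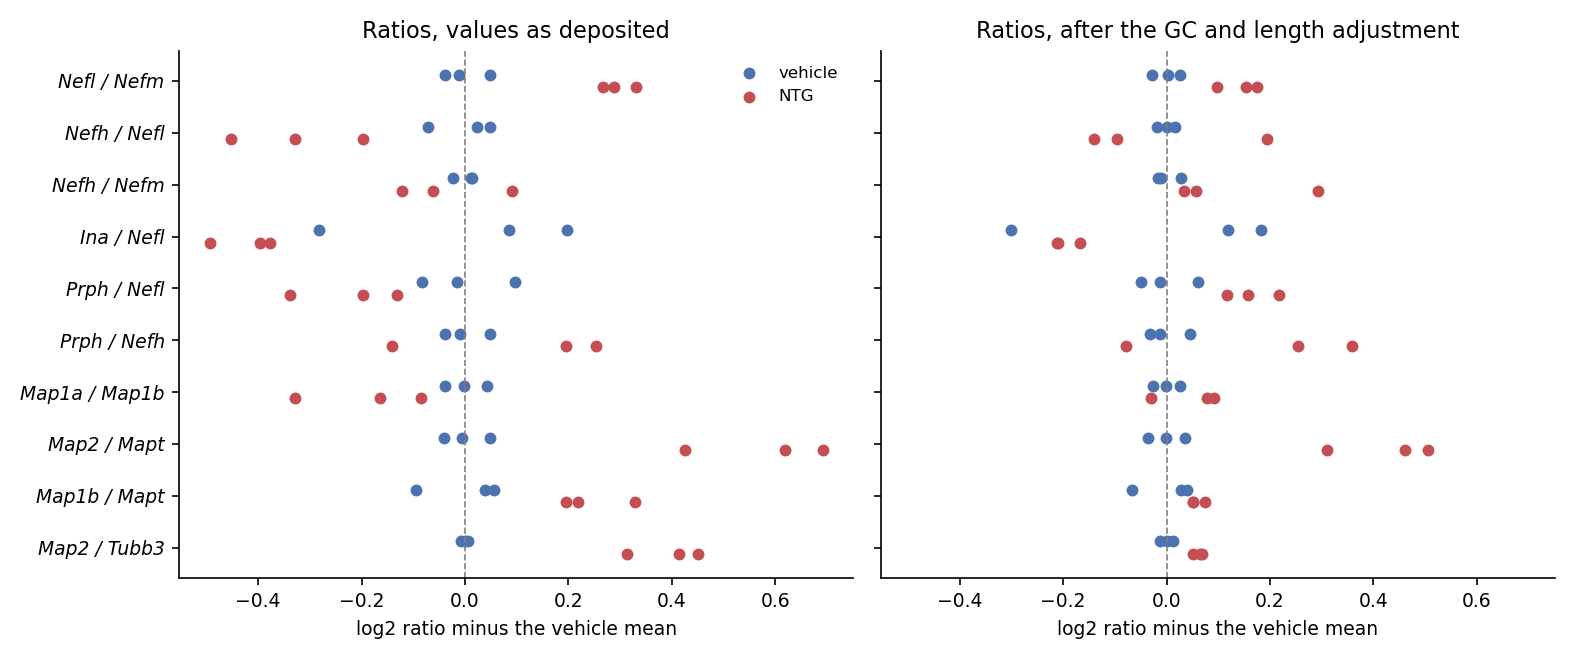
Log2 ratio of 10 pairs of genes in each library, minus the vehicle mean of that pair, as deposited (left) and after the GC and length adjustment (right); each point is 1 library. Map2 to Mapt and Nefl to Nefm stay apart between vehicle (blue) and NTG (red) in both panels, by 0.58 and 0.30 on the left and 0.43 and 0.14 on the right, while Nefh to Nefl overlaps on the right.

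Per length, most of the 10 genes are among the most abundant messages of the ganglion. In RPKM, reads scaled by transcript length and by library total, Nefl stood at 1767 ± 98.3 in vehicle and 1922 ± 27.4 in NTG (SD, n = 3 each), the fourth highest level of the genes tested that have a matched transcript. Nefm followed at 1336 ± 40.0 and 1185 ± 38.4, Tubb3 at 1146 ± 21.9 and 1136 ± 16.5, and Nefh at 985 ± 27.2 and 858 ± 87.8. Prph (818 ± 5.74 and 764 ± 47.9), Map1b (565 ± 41.5 and 583 ± 12.1) and Map1a (286 ± 27.4 and 259 ± 24.2) came next. Mapt (107 ± 1.90 and 93.6 ± 5.17) and Map2 (33.1 ± 0.567 and 43.1 ± 1.84) were lower, and Ina stood at 8.88 ± 1.35 and 7.15 ± 0.227. The order was the same in both groups. Neighbours in that order were separated by more than their spread, except Nefm and Tubb3 in NTG and Nefh and Prph in NTG, whose ranges of mean ± SD overlapped. Together the 10 genes took 2.89% ± 0.0677 of all reads in vehicle and 2.82% ± 0.0646 in NTG (exact permutation p = 0.4), and the neurofilament triplet 1.44% ± 0.0539 and 1.39% ± 0.0555 (exact permutation p = 0.3). The totals of the 10 genes and of the triplet thus differed by less than the range of the libraries within a group. When Map1b, which had the most reads, was left out, the sum of the other genes did not overlap, with NTG below. That sum was 21771 to 22628 CPM (reads scaled to library total) in vehicle and 20714 to 21703 in NTG, and no test was made of it.

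Genes that work with the 10 were taken from 8 lists of cytoskeletal function with 156 genes. The counts for each list stand beside 12.3% and 13.5% of all genes that rose and fell, and 4.08% and 5.08% after the adjustment. Alpha and beta tubulins supply the polymer itself. Of 16 other tubulin genes tested 1 rose and 3 fell, with a median log2 fold change of -0.03. Tuba1b, a main alpha tubulin, went from 15742 ± 329 normalised reads up to 18563 ± 666 (log2 fold change 0.24, limma adjusted p = 0.000611), and rose on the adjusted scale too (0.39). The oligodendrocyte and neuronal Tubb4a and the gamma tubulins Tubg1 and Tubg2, which nucleate microtubules, fell by log2 fold changes of -0.24, -0.26 and -0.26, and none of these passed after the adjustment. After it Tuba1a, Tuba1b and Tubb4b rose and none fell; Tuba1a and Tubb4b were named after their values were seen. Tubulin genes are close copies of each other, so their counts are uncertain.

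Of 35 other microtubule-associated and microtubule-severing genes 7 rose and 6 fell (median 0.01), and 4 rose (Ckap5, Map4, Dclk2 and Stmn3) and 2 fell (Crmp1 and Map7d2) after the adjustment; Map4, Dclk2, Stmn3 and Map7d2 were named after their values were seen. The polymerase gene Ckap5 rose (log2 fold change 0.40, limma adjusted p = 3.13e-05; when adjusted, 0.20 and 0.00413), and Crmp1, a collapsin response mediator, fell (-0.43, 0.000171; -0.25 and 0.00888). Camsap2, which caps minus ends, rose by 0.28 and Map7d1 fell by 0.39 on the log2 scale, but neither passed after the adjustment. Of 24 tubulin-modifying and tubulin-folding genes 3 rose and 6 fell (median -0.12), and 3 rose (Ttll7, Tbce and Vash1) and 1 fell (Tbca) after it; Vash1 and Tbca were named after their values were seen. The polyglutamylase gene Ttll7 rose from 16781 ± 605 to 22117 ± 772 normalised reads, and the folding cofactor gene Tbce from 437 ± 17.5 to 643 ± 23.7. Both passed on both scales.

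Of 30 genes for motors of axonal transport 12 rose and 5 fell (median log2 fold change 0.11), beside 12.3% and 13.5% of all genes and a median of 0.00. After the adjustment 8 rose and 0 fell (median 0.08), beside 4.08% and 5.08% of all genes and a median of 0.02. No test was made of the list. The dynactin subunit gene Dctn4 (log2 fold change 0.32, limma adjusted p = 0.000365) and the kinesin gene Kif21a (0.24, 0.000488) passed on both scales. Dync1li2 (0.23) and Kif1b (0.19) passed on the values as deposited only. Of 23 kinases, phosphatases and other enzymes that act on tau or on neurofilament tails 2 rose and 9 fell (median -0.11), and 0 rose and 5 fell (Ppp2cb, Cdk5r2, Ppp3ca, Gsk3b and Mark1) after the adjustment (median -0.11); Gsk3b and Mark1 were named after their values were seen. The phosphatase 2A catalytic gene Ppp2cb went from 1999 ± 233 normalised reads down to 1234 ± 25.6 (log2 fold change -0.69, limma adjusted p = 4.74e-06; -0.58 after the adjustment). Cdk5r2, an activator of the tau kinase CDK5, fell by 0.64 on the log2 scale (-0.19 after it), and the calcineurin gene Ppp3ca by 0.29 (-0.45 after it). Mark4, a tau kinase gene, fell by 0.42 and did not pass after the adjustment.

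Other intermediate filament genes, of glia and of the nuclear lamina, were mixed. Of 9 tested 0 rose and 3 fell, the lamin genes Lmna (log2 fold change -0.28) and Lmnb2 (-0.37) and the glial Gfap (-0.26), and none of these passed after the adjustment, when Vim and Sync rose instead (0.18 and 0.28; both named after their values were seen). Among 5 linkers and turnover factors of filaments Trim2, a ubiquitin ligase for light neurofilament, rose by 0.19, Macf1 by 0.17 and Dst by 0.13 on the log2 scale, and 0 passed after the adjustment. Of 11 spectrin, ankyrin and initial segment genes 2 rose (Sptan1 and Sptbn1) and 2 fell (Sptbn4 and Trim46), and after the adjustment only Sptan1 was called. Sptan1, the alpha spectrin gene of the axonal membrane skeleton, rose from 52403 ± 1988 to 59928 ± 1284 normalised reads and passed on both scales (log2 fold change 0.19 and 0.23).

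**Figure D5:**
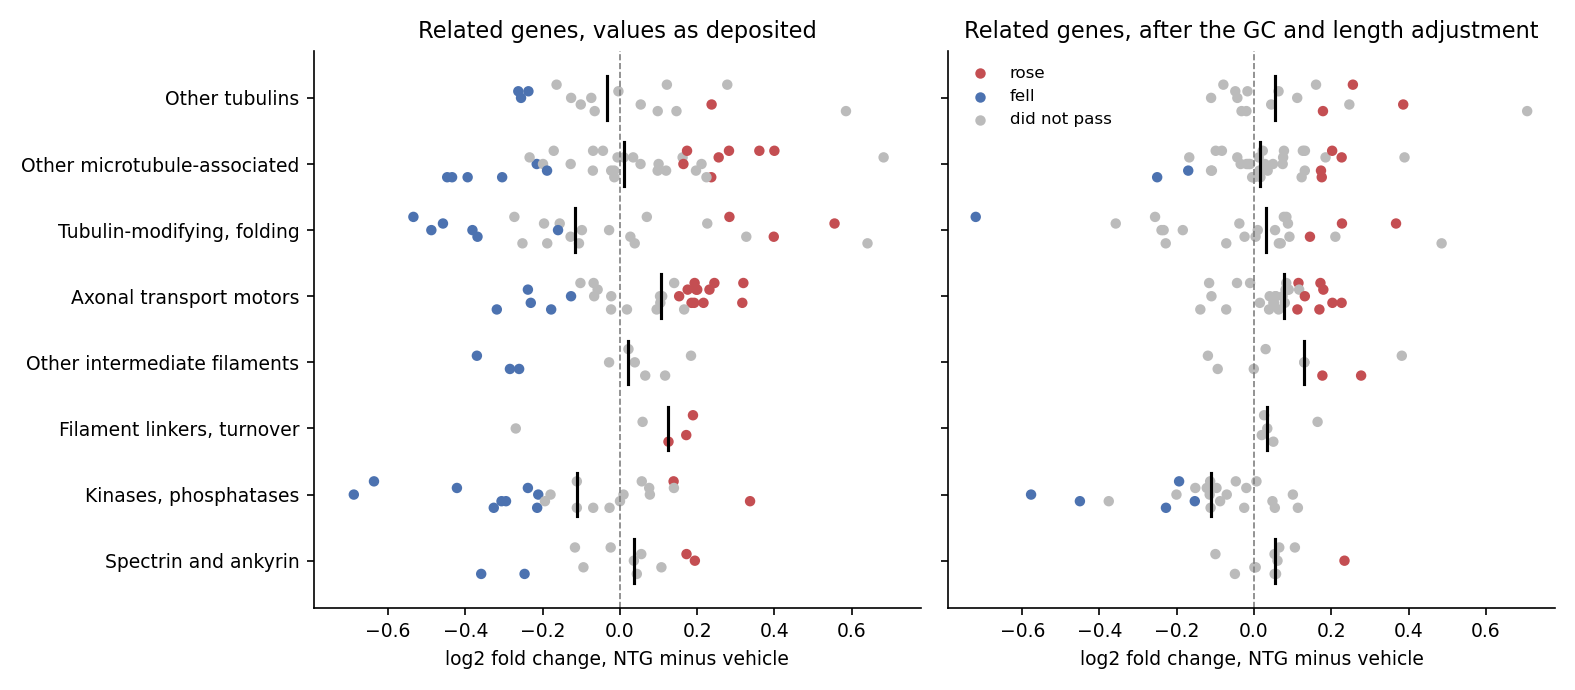
Log2 fold change (NTG minus vehicle) of each gene in 8 lists related to the neuronal cytoskeleton, as deposited (left) and after the GC and length adjustment (right); each point is a gene, red rose, blue fell, grey did not pass, and the black bar is the list's median. The motors lie mostly right of 0, with medians of 0.11 and 0.08, and the kinases and phosphatases mostly left of 0, with a median of -0.11 in both panels.

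Ganglia are mixtures, and in whole tissue fewer cells of a type cannot be told apart from less RNA per cell. The counts of markers called stand beside 12.3% and 13.5% of all genes that rose and fell, and 4.08% and 5.08% after the adjustment. All 12 genes on the list of neuron markers were present in every library, which fits tissue with neurons but does not identify the trigeminal ganglion. Of these 12, 2 rose and 6 fell, and 2 and 5 did so after the adjustment, and their summed level was 5865 to 6028 CPM (reads scaled to library total) in vehicle and 5552 to 5727 in NTG, with no overlap. Without Uchl1, their most abundant gene, named after its values were seen, the sums overlapped (3948 to 4055 against 3949 to 4018). Rbfox3 (NeuN), Elavl3 and Pou4f1 fell by 0.53, 0.47 and 0.41 on the log2 scale, while the sodium channel gene Scn9a rose by 0.43. Of 12 genes used as markers of large myelinated neurons 5 rose and 1 fell (1 and 0 after the adjustment). Their sum was 3349 to 3479 against 3677 to 3710 CPM, with no overlap and NTG above. Without Kcna1, their most abundant gene, named after its values were seen, the sums still did not overlap (2566 to 2649 against 2768 to 2776). Among 12 markers of small unmyelinated neurons 1 rose and 1 fell (1 and 0 after it), with sums of 3643 to 3666 and 3406 to 3755. Summed satellite glia markers were at 5389 to 5596 CPM in vehicle and 4883 to 5061 in NTG (2 of 8 rose and 3 fell; 1 and 1 after the adjustment), but without Apoe, their most abundant gene, the sums overlapped (1781 to 1992 against 1925 to 2062). Fibroblast markers summed to 1238 to 1379 and 1034 to 1207 (0 of 8 rose and 2 fell, Col1a2 and Col3a1, on both scales), and overlapped without Col1a2 (748 to 866 against 671 to 806). Sums for myelinating Schwann cells (13762 to 15234 against 13117 to 14617), macrophages (102 to 114 against 94.7 to 105) and endothelium (148 to 182 against 165 to 176) overlapped. Of 9 skeletal muscle markers 5 fell (Myh4, Ckm, Acta1, Tnnt3 and Tnni2, the last 3 named after their values were seen) and 0 rose, Myh4 going from 48.3 ± 39.0 to 5.14 ± 1.90 normalised reads. After the adjustment Myh4, Ckm and Tnni2 fell. The summed level was 67.0 to 73.1 against 63.9 to 70.2 CPM, of which Pvalb, also named after its values were seen, made up 61.4 on average. Without Pvalb the sums were 8.19 to 13.3 in vehicle and 3.95 to 4.52 in NTG, with no overlap, and Tnnt3 was at 0 in at least 1 library. The part of these differences in the changes of the 10 genes was not tested.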

How the data were processed

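Whole trigeminal ganglion RNA of 3 vehicle and 3 NTG libraries was sequenced in 150-base reads, per the labels' protocols; HISAT2, FastQC and GRCm38 stand in the submitters' processing notes, with versions not given in the sources used here. The deposited values are normalised counts (unit signal): gene counts that the authors divided by a size factor per library, as the values show, since each is a whole multiple of 1 step within 0.01 reads. Values were analysed as log2(value + 1) with limma 3.58.1 (trend, robust, two-sided) in R 4.3.3, for the 17475 genes that reached 1 in 3 or more libraries; p-values were adjusted by Benjamini-Hochberg and called under 0.05. The steps were tested on simulated counts that held no GC or length trend, so the removal of such a trend was not tested. edgeR 4.0.16 and DESeq2 1.42.0 were run on recovered whole reads as alternatives. The GC and length adjustment removed a smooth trend per library (mgcv 1.9.3) over the longest consensus coding transcript of GENCODE M21, matched for 16327 genes (93.2%), of which 16278 were tested. Groups came from the labels. Beside the 10 genes, up to 4 genes per list were named, those past the threshold with the smallest p and a mean of at least 1 CPM. The members and lists were chosen with earlier results of these data known. Locus coordinates are GRCm38. One set of sequences is not reported here.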

Additional observations from a re-analysis of the deposited data

How the results depend on the processing

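Each of the 10 genes was refitted under 24 alternatives, of which 6, the GC and length adjustment with a library left out, were chosen after seeing the data. Pseudocounts, filters, TMM and total count scaling changed none of the counts of genes called among the 10. Genes called in the whole table numbered 4512, against 313 with a minimum fold of 1.2, 1491 after the GC and length adjustment, 2053 with that adjustment and the replicate block, 2946 (without NTG replicate 2) to 4678 with a library left out, and 697 to 1571 with the adjustment and a library left out. Of the 10 genes 2 rose, against 1 in edgeR, 1 in DESeq2, 0 with the minimum fold, 3 after the adjustment, 1 to 2 with a library left out and 3 with both. Of the 10, 4 fell, against 0 with the minimum fold, 2 after the adjustment, 3 to 5 with a library left out and 0 to 2 with both. In the 8 related lists 30 rose and 34 fell, against 0 and 2 with the minimum fold, 21 and 8 after the adjustment, 28 and 14 with the adjustment and the replicate block, 22 to 31 and 22 to 37 with a library left out, and 13 to 18 and 3 to 8 with both. Of the 10 ratios 8 to 10 did not overlap with a library left out. The sign turned after the adjustment, with or without the replicate block, for Nefh (0.034), Prph (0.21), Map1b (-0.10) and Tubb3 (0.21). With a library left out as well, Nefh lay at -0.07 to 0.10, Prph at 0.19 to 0.23, Tubb3 at 0.19 to 0.22, Map1b at -0.14 to -0.07 and Map1a at -0.10 to 0.018 (without NTG replicate 1). Without vehicle replicate 1 Map1b was at -0.035, and without vehicle replicate 2 at 0.074. On the deposited values with a library left out, Nefh lay at -0.29 to -0.15, Prph at -0.17 to -0.061, Map1a at -0.25 to -0.084 and Tubb3 at -0.040 to -0.0080. The cause was not tested. Same-numbered libraries did not deviate together (r = 0.004, -0.033 and -0.025 over genes). This does not show that the numbers pair the libraries, but correlations over many noisy genes cannot exclude it. With the replicate block 5254 genes were called, Nefh was not (limma adjusted p = 0.164), and Prph (0.00767) and Map1a (3.12e-05) fell, 5 of the 10 in all; with the block and the adjustment 3 rose and 3 fell.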
